A study of Mus musculus with 12 samples.

Results

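Classical monocyte genes are described here across 12 bulk RNA-seq libraries of mouse lung macrophages. The set is 9 genes, *Ly6c2*, *Plac8*, *Hp*, *Vcan*, *Ifitm6*, *Ms4a4c*, *F13a1*, *Fn1* and *S100a4*, found by symbol among the 52636 genes of the deposited count table, and all 9 passed the filter on low counts that left 16679 genes for testing. The cells are given by the study as Cx3cr1+ macrophages, and the tissue as lung. The libraries fall into 3 groups of 4: mice labelled IL4Ra KO and given bleomycin (bleomycin KO), mice labelled IL4Ra WT and given bleomycin (bleomycin WT), and mice labelled IL4Ra WT and given saline (saline WT). Bleomycin is a DNA-damaging drug used to induce lung fibrosis in mice, saline is its vehicle control, and IL4Ra is the alpha chain through which IL-4 and IL-13 both signal. There is no saline KO group here, so genotype is compared under bleomycin only. The Cre driver or deleted exons behind the KO, the strain, age, time after bleomycin and any pooling of animals are named by none of the sources used here, and p-values measure the spread between these samples.

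Classical monocytes leave the bone marrow, circulate as Ly6C-high cells and enter injured tissue, where they can become macrophages. In the mouse lung, monocytes recruited after bleomycin contribute macrophages to the fibrotic tissue. As they mature into macrophages, monocytes generally lose genes such as *Ly6c2* and *Plac8*, while several of the 9 genes are not limited to monocytes: haptoglobin is also carried by neutrophils, and fibronectin is also made by macrophages and fibroblasts.

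Total counts ran from 60598 to 18051113 per library. Saline WT 2 was by far the shallowest library, with 60598 counts over 4830 genes, and a single count there is worth 10.8 CPM (counts scaled to library size, with TMM factors between libraries). Bleomycin WT 4 had the lowest scaling factor, 0.579, and was the lowest of the 8 bleomycin libraries for 7 of the 9 genes (*Ly6c2*, *Vcan*, *Ifitm6*, *Ms4a4c*, *F13a1*, *Fn1* and *S100a4*) and the highest of them for *Hp*. Tests of the members are also given without these 2 libraries. *Il4ra*, the gene named in the genotype label, stood at 332 ± 104 CPM in bleomycin KO, 355 ± 203 CPM in bleomycin WT, with saline WT at 177 ± 127 CPM (SD, n = 4 each), and counts over the whole gene do not check a deletion of some exons, so KO is used below as the label. *Csf1r*, the receptor for the macrophage growth factor CSF1, was present in all groups, at 1494 ± 267 CPM in bleomycin KO, 1328 ± 948 CPM in bleomycin WT and, in saline WT, 1528 ± 512 CPM. *Cx3cr1*, the gene of the sort, was listed in every library, at 97.3 ± 16.1 CPM in bleomycin KO and 57.0 ± 43.3 CPM in bleomycin WT. The saline WT libraries had 196, 940.4, 136 and 98.1 CPM, where saline WT 2 is the high one. Bleomycin WT 4 was the lowest of the 12 libraries for both genes, with *Cx3cr1* at 7.46 CPM and *Csf1r* at 273 CPM.

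The 9 genes lie on separate loci of the GRCm38 genome, all annotated as protein coding. *Ly6c2* is at chr15:75108158-75111970 (minus strand), *Plac8* at chr5:100553725-100572245 (minus), *Hp* at chr8:109575128-109579172 (minus) and *Ifitm6* at chr7:141015699-141017924 (minus). *Fn1* is at chr1:71585520-71653200 (minus), *F13a1* at chr13:36867178-37050244 (minus) and *Vcan* at chr13:89655312-89742509 (minus). *S100a4* is at chr3:90603771-90606045 (plus) and *Ms4a4c* at chr19:11404770-11427246 (plus). The upstream sequences of a few members are shown because the genes share a cell type, and to let their letters be compared. RefSeq promoter windows (GRCm38.p6, 250 bases before to 50 after a start) were held for 7 of the 9 genes, in 10 windows. The windows of *Plac8* (chr5:100572156-100572455, minus), *Ly6c2* (chr15:75111922-75112221, minus) and *F13a1* (chr13:37050195-37050494, minus) read as follows, 5′ to 3′, with capitals on GAGGAA, the core bound by the myeloid factor PU.1 and other ETS factors, or on its complement TTCCTC.
Plac8: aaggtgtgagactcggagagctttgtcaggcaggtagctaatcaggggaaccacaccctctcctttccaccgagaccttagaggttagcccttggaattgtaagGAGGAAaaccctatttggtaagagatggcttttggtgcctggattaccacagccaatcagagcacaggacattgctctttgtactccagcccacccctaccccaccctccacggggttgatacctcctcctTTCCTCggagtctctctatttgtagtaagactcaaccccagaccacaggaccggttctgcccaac
Ly6c2: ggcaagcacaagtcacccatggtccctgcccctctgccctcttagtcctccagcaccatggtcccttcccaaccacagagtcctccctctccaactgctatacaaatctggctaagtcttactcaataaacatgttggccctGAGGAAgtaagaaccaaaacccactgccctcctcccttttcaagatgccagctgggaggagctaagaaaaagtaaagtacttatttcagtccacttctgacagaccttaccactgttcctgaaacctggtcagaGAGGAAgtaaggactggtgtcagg
F13a1: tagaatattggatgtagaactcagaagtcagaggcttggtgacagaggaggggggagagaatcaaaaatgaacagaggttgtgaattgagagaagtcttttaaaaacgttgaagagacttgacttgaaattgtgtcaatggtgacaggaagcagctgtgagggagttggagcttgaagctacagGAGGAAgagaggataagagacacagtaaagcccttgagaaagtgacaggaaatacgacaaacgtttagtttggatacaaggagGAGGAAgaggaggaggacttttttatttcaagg
GAGGAA was searched on both strands and was present in 7 of the 10 windows, of *Ly6c2*, *Plac8*, *Ms4a4c*, *F13a1* and *S100a4*, where 28.3% of all 32851 RefSeq promoter windows hold it. The paired windows of *Ly6c2* overlap, and *Plac8* has the letters in the printed window alone of its 2. Each printed window holds 2 matches. The windows of *Ms4a4c* and *S100a4* hold 1 each, and those of *Vcan* and *Ifitm6* hold 0. A C/EBP-type motif, TTGCNNAA, was in 1 of the 10 windows, the other one of *Plac8*, against 10.8% of all windows. The interferon response element (GAAA, any 2 bases, GAAA) and the AP-1 site TGANTCA were in 0 of 10, against 3.44% and 7.81% of all windows. A letter match is a description of these windows and shows no binding.

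The 50-base reads can be placed less surely on some members than on others. Of the 50-base stretches of the annotated transcripts, 14.5% of those of *Ly6c2* also occur in another gene, most of them in its neighbour *Ly6c1*. The share was 8.19% for *Ms4a4c*, mostly with *Ms4a4b*, 2.51% for *Fn1* and 0.404% for *F13a1*. It was 47.4% for *S100a4*, shared with the overlapping model Gm42674, which is listed at 0 counts over all libraries. *Plac8*, *Hp*, *Vcan* and *Ifitm6* had no shared stretch, so their counts do not depend on how such reads were assigned.

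Set against each other per kilobase of exon, the members covered a wide range of levels. In bleomycin KO the order of group means was *S100a4* (330 CPM per kb), *Fn1* (204), *Hp* (154), *F13a1* (95.6), *Ly6c2* (91.2), *Plac8* (41.6), *Ms4a4c* (35.3), *Ifitm6* (11.1) and *Vcan* (0.875). Neighbours in that order overlapped in their ranges over the 4 libraries, except *Ly6c2* and *Plac8*, *Ms4a4c* and *Ifitm6*, and *Ifitm6* and *Vcan*. In bleomycin WT *Fn1* (309) and *S100a4* (302) headed the order, with wide and overlapping ranges, ahead of *Hp* (216), *F13a1* (94.4), *Ly6c2* (56.1), *Ms4a4c* (28.1), *Plac8* (27.6), *Ifitm6* (8.23) and *Vcan* (1.20). In saline WT the order opened with *Hp* (788), *S100a4* (329), *Plac8* (229.7), *Ly6c2* (173) and *Ifitm6* (141), each overlapping the next in range, and went on with *F13a1* (80.9), *Fn1* (37.0), *Ms4a4c* (35.4) and *Vcan* (1.13). *Ifitm6* had rank 8 of the 9 in each of the 8 bleomycin libraries and from 3 to 6 in the saline WT libraries, while *Vcan*, the large matrix proteoglycan versican, ranked last in every library.

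The make-up of the summed signal of the 9 genes followed the same lines. *Fn1* held 81.4, 54.4, 39.1 and 51.6% of the members' summed CPM in the bleomycin KO libraries, 59.0, 92.5, 40.6 and 39.7% in the bleomycin WT libraries, and 14.3, 24.1, 7.08 and 12.3% in the saline WT libraries. *Plac8* held 0.281 to 4.21% of it in the 8 bleomycin libraries and 9.26 to 15.8% in saline WT. *Hp* held 5.60 to 13.02% in bleomycin KO, 1.59 to 48.6% in bleomycin WT, where the top value is bleomycin WT 4, and 29.6 to 47.0% in saline WT. The shares are not independent of each other, since they sum to the whole in each library.

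**Figure D1:**
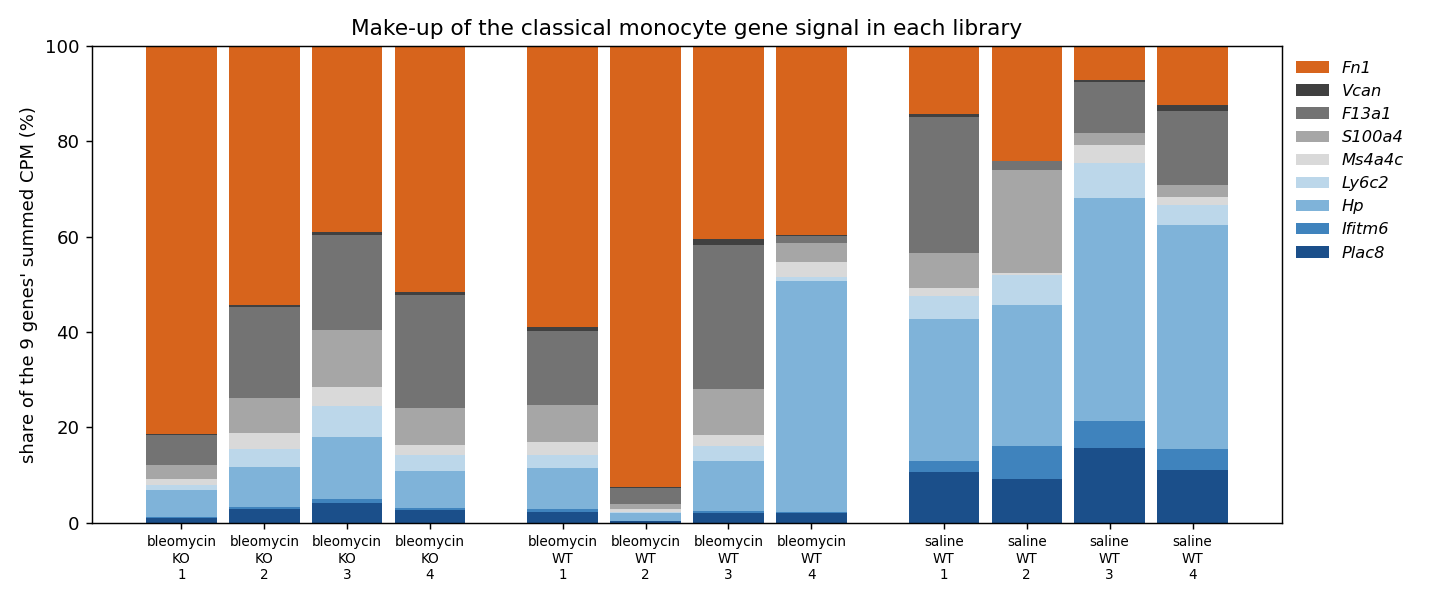
Share of the summed CPM of the 9 genes (percent, vertical axis) taken by each gene in each library (bars, numbered by replicate), with bleomycin KO at the left, bleomycin WT in the middle and saline WT at the right. The orange *Fn1* segment fills 39.1 to 92.5% of the bleomycin bars and 7.08 to 24.1% of the saline WT bars.

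Among the surface and intracellular members, *Plac8*, which encodes a small cysteine-rich protein abundant in monocytes and other myeloid cells, had 47.7, 66.1, 68.8 and 51.0 CPM in the bleomycin KO libraries 1 to 4, 49.0, 23.0, 59.3 and 23.6 CPM in the bleomycin WT libraries, and 136, 162, 691 and 302 CPM in the saline WT libraries. All 8 bleomycin libraries lay below all 4 saline WT libraries, and the bleomycin groups overlapped. *Ifitm6*, of the interferon-induced transmembrane protein family, had 9.73, 8.57, 13.2 and 8.77 CPM in bleomycin KO, 12.4, 4.94, 11.9 and 0.533 CPM in bleomycin WT, and 30.9, 119, 244 and 118 CPM in saline WT. Here too every bleomycin library lay below every saline WT library, with the 0.533 CPM of bleomycin WT 4 resting on 3 counts and the 119 CPM of saline WT 2 on 11. *Ly6c2*, part of the Ly6C surface antigen by which classical monocytes are sorted, had 57.7, 85.6, 107 and 66.8 CPM in bleomycin KO, 59.1, 28.7, 97.8 and 9.24 CPM in bleomycin WT, and 63.2, 108, 317 and 113 CPM in saline WT. The groups of *Ly6c2* overlapped, with 3 of 4 bleomycin WT libraries below the lowest saline WT library.

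*Ms4a4c*, a membrane protein with several membrane-spanning segments, had 57.1, 76.8, 65.3 and 43.8 CPM in bleomycin KO, 54.9, 40.3, 64.2 and 33.9 CPM in bleomycin WT, and 21.2, 10.8, 166 and 46.6 CPM in saline WT. The saline WT libraries spanned the bleomycin ones on both sides, and the 10.8 CPM of saline WT 2 is 1 count. *S100a4*, a calcium-binding protein of monocytes, fibroblasts and other motile cells, had 148, 160.3, 194 and 155 CPM in bleomycin KO, 165, 102, 291 and 43.7 CPM in bleomycin WT, and 96.3, 378, 111 and 70.7 CPM in saline WT. The saline WT 2 value rests on 35 counts, with an exact Poisson 95% interval of 264 to 526 CPM that covers counting error alone. Without it, the bleomycin KO libraries all lay above the saline WT ones, as they did for 9.93% of all genes tested.

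Among the secreted members, *Hp*, haptoglobin, the plasma protein that binds free haemoglobin, had 277, 184, 213 and 155 CPM in bleomycin KO, 179, 131, 311 and 539.5 CPM in bleomycin WT, and 383, 519, 2055 and 1283 CPM in saline WT. All bleomycin KO libraries lay below all saline WT libraries, while bleomycin WT 4 lay above the 2 lowest saline WT libraries. *Fn1*, fibronectin, an adhesive glycoprotein of the extracellular matrix, had 4028, 1214, 639 and 1025 CPM in bleomycin KO, 1243, 7591, 1206 and 441 CPM in bleomycin WT, and 184, 422, 311 and 337 CPM in saline WT. All 8 bleomycin libraries were above all 4 saline WT libraries, but the lowest, bleomycin WT 4, lay inside the exact Poisson 95% interval of saline WT 2, 299.8 to 576 CPM from 39 counts.

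*F13a1*, the catalytic A subunit of coagulation factor XIII, which crosslinks fibrin, had 309, 427, 326 and 468 CPM in bleomycin KO, 327, 270.4, 896 and 17.4 CPM in bleomycin WT, and 368, 32.4, 471 and 425 CPM in saline WT. Its groups overlapped, the low values being bleomycin WT 4 and saline WT 2, the second from 3 counts. *Vcan* had 14.2, 9.56, 9.36 and 13.8 CPM in bleomycin KO, 16.2, 12.6, 34.7 and 1.07 CPM in bleomycin WT, and 6.57, 0, 20.3 and 33.6 CPM in saline WT. The 0 of saline WT 2 is read against a floor of 32.4 CPM, the value of 3 counts there, and does not show absence.

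**Figure D2:**
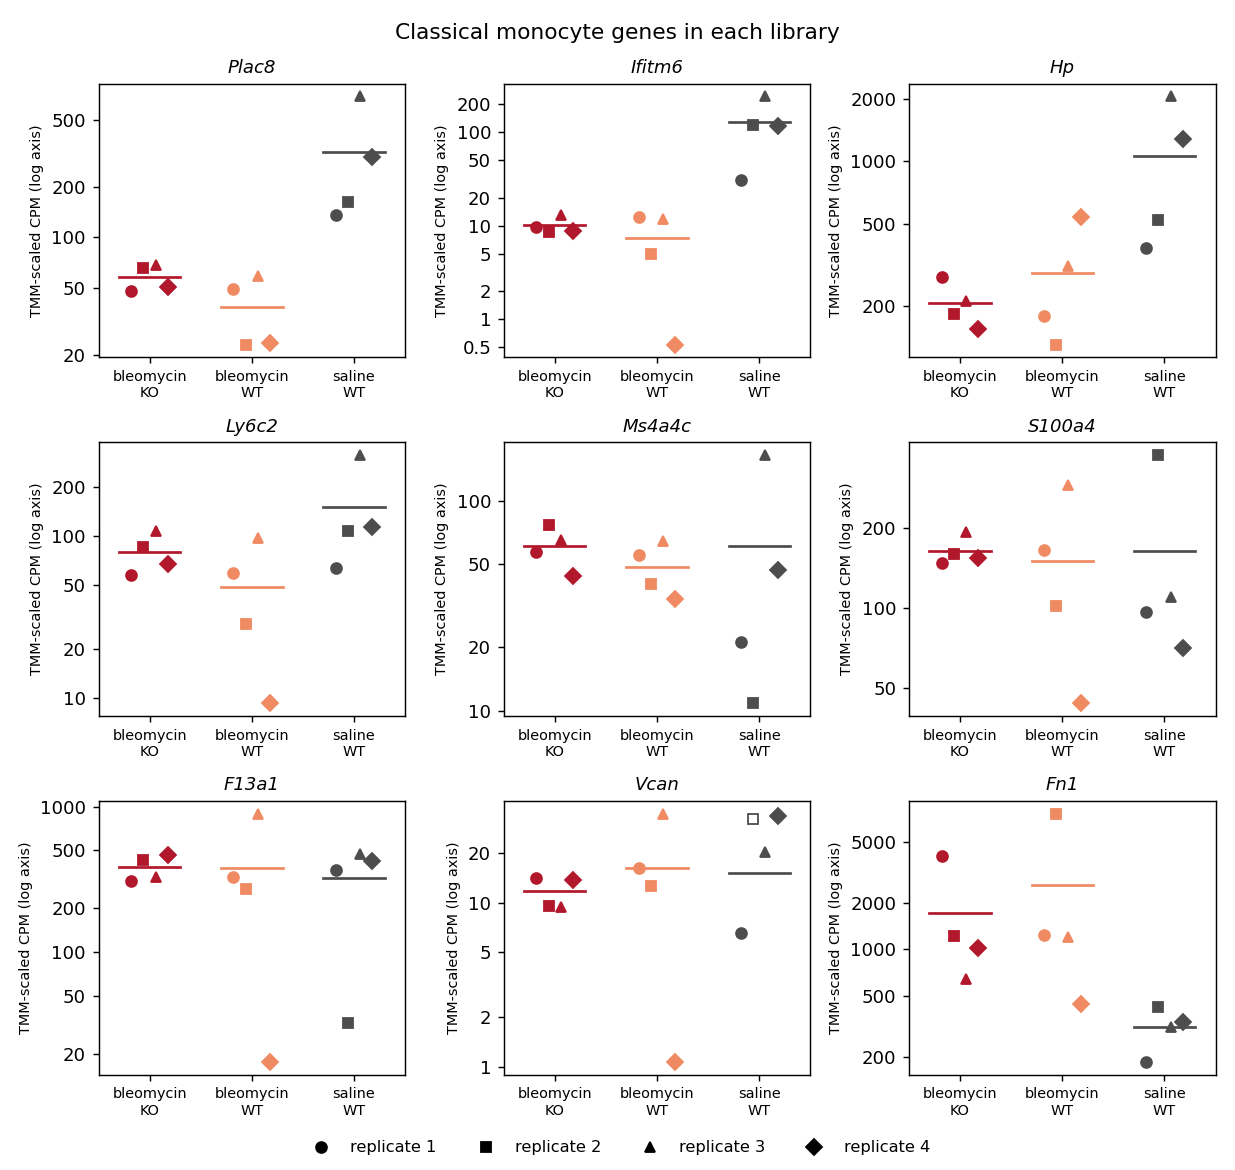
TMM-scaled CPM (log axes) of each of the 9 genes in each library, with bleomycin KO at the left, bleomycin WT in the middle and saline WT at the right of each panel, symbols for replicates 1 to 4 and a horizontal line at the group mean. The open symbol for *Vcan* in saline WT 2 stands for 0 counts and is drawn at the value of 3 counts. *Plac8* and *Ifitm6* are lower in all 8 bleomycin libraries than in any saline WT library, and *Fn1* is higher.

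The first comparison asks how the genes differed with bleomycin in WT mice. In bleomycin WT, *Plac8* averaged 38.8 ± 18.3 CPM, against 323 ± 256 CPM in saline WT (SD, n = 4 each), and *Ifitm6* averaged 7.45 ± 5.73 CPM, against 128 ± 87.8 CPM. *Hp* averaged 290.1 ± 183 CPM in bleomycin WT, with saline WT at 1060.0 ± 773 CPM, and *Ly6c2* averaged 48.7 ± 38.6 CPM and 150.4 ± 113 CPM in the same groups. *Fn1* went the other way, with 2620.1 ± 3334 CPM in bleomycin WT, against 313 ± 98.2 CPM in saline WT, and the log2 fold change of 3.07 became 1.66 without bleomycin WT 2. In bulk samples such as these, fewer cells of a type and less RNA per cell cannot be told apart. With edgeR's quasi-likelihood test on all 12 libraries and Benjamini-Hochberg adjustment over all genes, 0 of the 9 members passed an adjusted p of 0.05, where 0.024% of all genes tested did. At an unadjusted p under 0.05, 4 members were lower and 1 was higher, where 6.19% and 8.47% of all genes were, and DESeq2 called 4 members, where it called 3.48% of all genes. Voom with quality weights called 3 members, and edgeR with no low-count filter called 4, where each called 1.91% of all genes.

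By size, the log2 fold change was -4.10 for *Ifitm6* (SE 0.86, edgeR adjusted p = 0.147) and -3.07 for *Plac8* (SE 0.60, edgeR adjusted p = 0.101). For *Hp* it was -1.87 (SE 0.57, edgeR adjusted p = 0.221), for *Ly6c2* -1.64 (SE 0.68, edgeR adjusted p = 0.297) and for *Fn1* 3.07 (SE 0.80, edgeR adjusted p = 0.201). Without saline WT 3 these were -3.41 for *Ifitm6*, -2.26 for *Plac8*, -1.22 for *Hp* and -0.82 for *Ly6c2*. *Ms4a4c* had a log2 fold change of -0.42, *F13a1* of 0.20, *Vcan* of -0.09 and *S100a4* of -0.05, with edgeR adjusted p-values of 0.812 to 0.983 and signs that change with the libraries or methods used. Their 95% intervals were wide, from -1.50 to 1.89 for *F13a1*, from -1.82 to 0.98 for *Ms4a4c*, from -1.36 to 1.26 for *S100a4* and from -1.95 to 1.77 for *Vcan*, and they leave room for a difference of more than 1 log2 unit in at least 1 direction. The median over the members was -0.42, against 0.08 over all genes tested. Libraries of the groups did not overlap for 3 members, *Plac8* and *Ifitm6* lower and *Fn1* higher, where 0.929% of all genes were wholly lower and 4.93% wholly higher. A gene at 0 in saline WT 2 cannot be wholly lower, and without that library 6.65% of all genes were wholly lower, with *Plac8* and *Ifitm6* still among them. *Hp* was also wholly lower without bleomycin WT 4, where the share was 1.12%, and without both saline WT 2 and bleomycin WT 4, where it was 9.72%. *Ly6c2* was wholly lower without saline WT 1, where the share was 1.68%, and without bleomycin WT 3, where it was 0.984%. *Fn1* overlapped under both other scalings tried.

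Without saline WT 2 and bleomycin WT 4, 2 members passed the test in that comparison, where 0.431% of all genes did. *Plac8* fell to 44.0 ± 19.0 CPM in bleomycin WT, against 379 ± 283 CPM in saline WT (SD, n = 3 each), with -3.11 as its log2 fold change (SE 0.55, edgeR adjusted p = 0.0478). *Ifitm6* fell to 9.79 ± 4.26 CPM in bleomycin WT, against 132 ± 107 CPM in saline WT, with -3.75 as its log2 fold change (SE 0.67, edgeR adjusted p = 0.0482). *Hp* had a log2 fold change of -2.59 (edgeR adjusted p = 0.0685) and *Fn1* one of 3.56 (edgeR adjusted p = 0.110), short of the threshold. *S100a4*, near 0 with all libraries, had 0.98 (edgeR adjusted p = 0.260).

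The second comparison asks how the genes differed between the KO and WT labels under bleomycin. *Ly6c2* averaged 79.2 ± 21.7 CPM in bleomycin KO and 48.7 ± 38.6 CPM in bleomycin WT, and *Plac8* 58.4 ± 10.6 CPM and 38.8 ± 18.3 CPM in the same groups (SD, n = 4 each). *Fn1* averaged 1726 ± 1553 CPM in bleomycin KO and 2620.1 ± 3334 CPM in bleomycin WT, and *Hp* 207 ± 52.3 CPM and 290.1 ± 183 CPM. Of the 9 members, 0 passed the edgeR test at an adjusted p of 0.05, where 0% of all genes did, and 0 had an unadjusted p under 0.05, where 3.88% of all genes did. DESeq2 and voom with quality weights also called 0 members, as did edgeR with no low-count filter, which called 0.596% of all genes. Each member's bleomycin KO libraries overlapped its bleomycin WT libraries, where 1.5% of all genes did not overlap.

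The log2 fold changes ran from -0.60 for *Fn1* to 0.70 for *Ly6c2*, with an edgeR adjusted p of 0.9998 for each. The *Fn1* value was 0.85 without bleomycin WT 2 and -1.47 without bleomycin KO 1, and the signs of *F13a1*, *S100a4*, *Vcan*, *Hp* and *Ifitm6* also changed under some of the alternatives. Without saline WT 2 and bleomycin WT 4 the log2 fold change was 0.37 for *Ly6c2*, 0.42 for *Plac8*, 0.05 for *Ifitm6*, 0.0059 for *Hp*, -0.85 for *Vcan* and -0.95 for *Fn1*. The 95% interval was -0.71 to 2.11 for *Ly6c2*, -0.58 to 1.76 for *Plac8*, -1.18 to 2.04 for *Ifitm6*, -1.67 to 0.70 for *Hp* and -2.16 to 0.96 for *Fn1*, so differences of more than 1 log2 unit are not excluded for any of these. For *F13a1* (log2 fold change 0.02, interval -1.68 to 1.71) and *S100a4* (0.13, interval -1.16 to 1.41) the means of the groups lay close together, at 382 ± 76.8 CPM in bleomycin KO and 378 ± 371 CPM in bleomycin WT for *F13a1* and at 164 ± 20.6 CPM and 150.3 ± 106 CPM for *S100a4*. *Ms4a4c* had a log2 fold change of 0.33 (interval -1.06 to 1.72) and *Vcan* of -0.46 (interval -2.30 to 1.37). The median over the members was 0.13, against -0.01 over all genes.

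The bleomycin KO libraries lay closer to each other than the bleomycin WT libraries did. The highest of the 4 bleomycin KO libraries was 1.31 to 1.85 times the lowest for 8 members and 6.31 times for *Fn1*, against 1.89 times for *Ms4a4c* to 51.4 times for *F13a1* over the 4 bleomycin WT libraries. That ratio was smaller in bleomycin KO for 9 of 9 members and for 72.8% of all genes. Without bleomycin WT 4 it was smaller in bleomycin KO for 7 of 9 members and for 33.6% of all genes, in a comparison of 4 libraries with 3. The difference in spread was not tested.

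**Figure D3:**
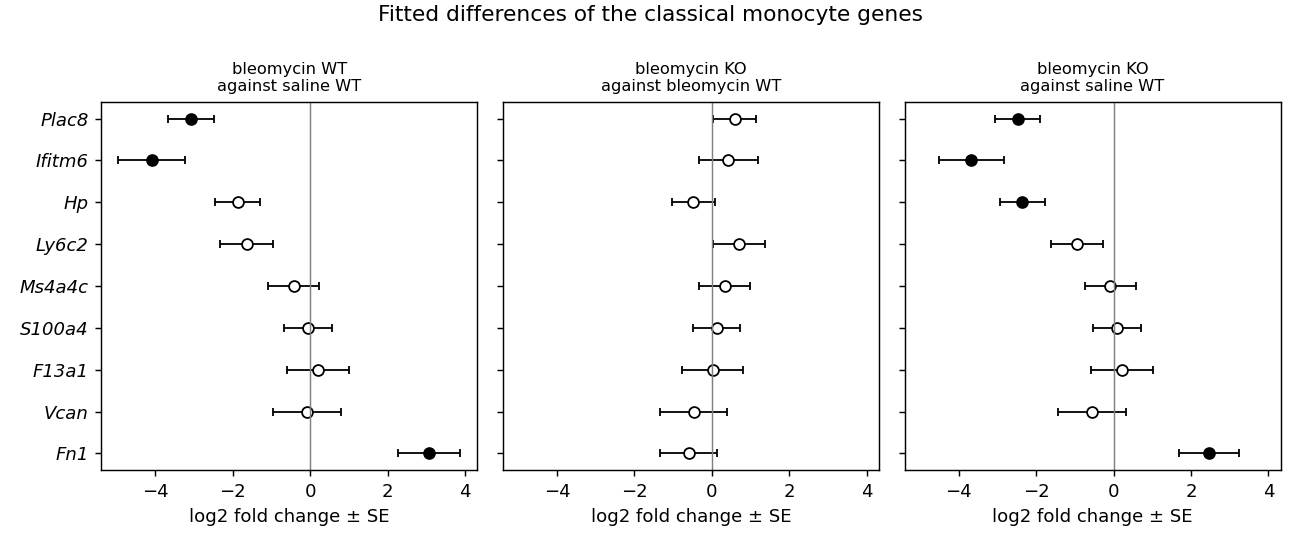
Log2 fold change (horizontal axis) of each of the 9 genes in the 3 comparisons, with bars for ± 1 SE from the edgeR fit, n = 4 libraries a group. Filled points mark genes whose libraries do not overlap between the groups compared: *Plac8*, *Ifitm6* and *Fn1* in bleomycin WT against saline WT, and *Plac8*, *Ifitm6*, *Hp* and *Fn1* in bleomycin KO against saline WT. All points of the middle panel lie between -0.60 and 0.70.

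The third comparison sets bleomycin KO against saline WT, which differ in both treatment and genotype and share the saline WT libraries with the first comparison. *Plac8* averaged 58.4 ± 10.6 CPM in bleomycin KO, against 323 ± 256 CPM in saline WT, and *Ifitm6* 10.1 ± 2.12 CPM, against 128 ± 87.8 CPM (SD, n = 4 each). *Hp* averaged 207 ± 52.3 CPM in bleomycin KO, against 1060.0 ± 773 CPM in saline WT, and *Fn1* 1726 ± 1553 CPM, against 313 ± 98.2 CPM. In this comparison 0 of 9 members passed the edgeR test at an adjusted p of 0.05, where 0.018% of all genes did. At an unadjusted p under 0.05, 3 members were lower and 1 was higher, where 6.07% and 2.96% of all genes were, and DESeq2 called 3 members, where it called 2.41% of all genes. Voom with quality weights called 3 members and 1.39% of all genes, and edgeR with no low-count filter 4 members and 1.7% of all genes. Without bleomycin WT 4 alone, *Ifitm6* was called, with 0.0982% of all genes. That library is in neither group compared here and enters through the shared fit. The log2 fold change was -3.60 without it and -3.67 with all libraries. The libraries did not overlap for 4 members, 3 lower and 1 higher, where 1.04% of all genes were wholly lower and 8.17% wholly higher, and *Fn1* overlapped under upper quartile scaling. Without saline WT 2, 6.95% of all genes were wholly lower, and without it and bleomycin WT 4, 7.89%, with the same 3 members lower, and *S100a4* then had a log2 fold change of 0.81 (edgeR adjusted p = 0.260).

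The log2 fold change was -3.67 for *Ifitm6* (SE 0.84, edgeR adjusted p = 0.207), -2.48 for *Plac8* (SE 0.58, the same edgeR adjusted p), -2.36 for *Hp* (SE 0.58, the same edgeR adjusted p) and 2.47 for *Fn1* (SE 0.78, edgeR adjusted p = 0.333). *Ly6c2* had -0.94 (SE 0.67, edgeR adjusted p = 0.737), and -0.12 without saline WT 3. The *Fn1* value was 1.65 without bleomycin KO 1, and without saline WT 3 that of *Plac8* was -1.67, of *Hp* -1.70 and of *Ifitm6* -2.99. *Vcan* had -0.55, *Ms4a4c* -0.09, *S100a4* 0.08 and *F13a1* 0.21, with edgeR adjusted p-values of 0.893 to 0.984, signs that change with the libraries or methods used, and means of 11.7 ± 2.62 CPM in bleomycin KO and 15.1 ± 14.9 CPM in saline WT for *Vcan* and of 60.7 ± 13.9 CPM and 61.1 ± 71.3 CPM for *Ms4a4c*. The median over the members was -0.55, against 0.04 over all genes. Without saline WT 2 and bleomycin WT 4, 3 members passed the edgeR test, where 0.643% of all genes did. *Ifitm6* fell to 10.1 ± 2.17 CPM in bleomycin KO (n = 4), against 132 ± 107 CPM in saline WT (n = 3; log2 fold change -3.70, SE 0.60, edgeR adjusted p = 0.0325). *Plac8* fell by 2.69 on the log2 scale (SE 0.49, edgeR adjusted p = 0.0456) and *Hp* by 2.59 (SE 0.48, edgeR adjusted p = 0.0482).

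Markers of other cells moved with these genes. The summed level of 12 neutrophil genes was 2246, 1446, 2018 and 1379 CPM in bleomycin KO, 1903, 968, 1574 and 926 CPM in bleomycin WT, and 2819, 3729, 32039 and 19328 CPM in saline WT, so every bleomycin library lay below every saline WT library. All 12 had negative log2 fold changes in bleomycin WT and in bleomycin KO against saline WT, 10 of them in each comparison with an unadjusted p under 0.05, against 6.19% and 6.07% of all genes lower at that p, 0 passed the adjusted edgeR threshold, and none was at 0 in all libraries of a group. *S100a9*, a subunit of the neutrophil and monocyte protein calprotectin, averaged 570.0 ± 145 CPM in bleomycin KO, 343 ± 236 CPM in bleomycin WT and, in saline WT, 5804 ± 5129 CPM. Within saline WT, *Plac8*, *Hp* and *Ly6c2* were ordered over the libraries as the neutrophil sum was, highest in replicate 3 and lowest in replicate 1. *Ifitm6* was not, with replicate 2 at 119 CPM and replicate 4 at 118 CPM. The place of saline WT 2 is not resolved for *Plac8* and *Ly6c2*. Their exact Poisson 95% intervals there, 90.8 to 267 CPM and 51.8 to 199 CPM, reach other saline WT libraries. Bleomycin WT 4 had the highest *Hp* of the bleomycin libraries and the lowest neutrophil sum. The part of neutrophil RNA in the levels of *Plac8*, *Ifitm6*, *Hp* and *Ly6c2* was not tested.

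**Figure D4:**
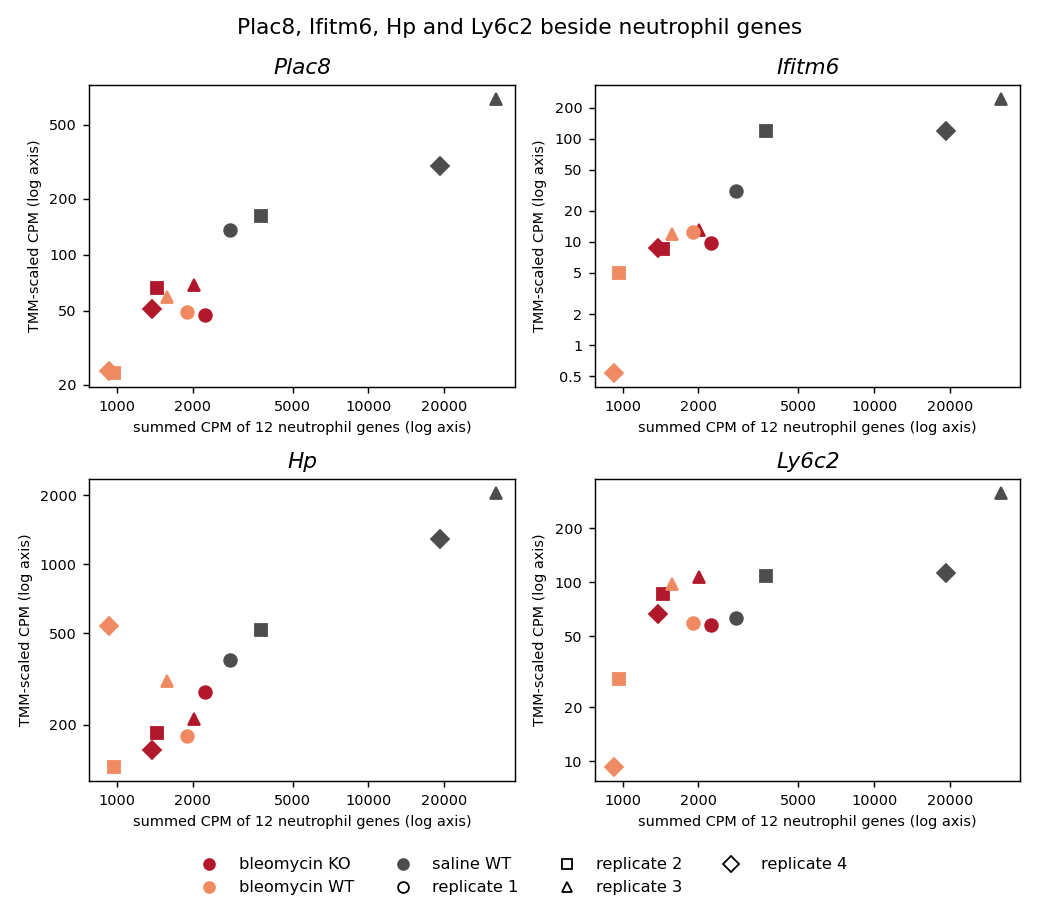
Summed CPM of 12 neutrophil genes (horizontal, log axis) against the CPM of *Plac8*, *Ifitm6*, *Hp* and *Ly6c2* (vertical, log axes) in each library, coloured by group, with symbols for replicates 1 to 4. The saline WT libraries sit at the right, from 2819 to 32039 CPM of neutrophil genes, and the bleomycin libraries at the left, from 926 to 2246 CPM, with the *Hp* value of bleomycin WT 4 above its neighbours.

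Further marker lists were read in the same way, and some of them are given here. The 10 non-classical monocyte genes summed to 1201 to 2002 CPM in bleomycin KO, 345 to 2233 CPM in bleomycin WT and 1146 to 4737 CPM in saline WT. All 10 had negative log2 fold changes against saline WT, where 47.1% of all genes did in bleomycin WT and 48.3% in bleomycin KO. Their medians were -2.39 and -2.21. At an unadjusted edgeR p under 0.05, 9 and 8 were lower in the same order, where 6.19% and 6.07% of all genes were. Of the 10, 0 passed the adjusted edgeR threshold. The 11 lung epithelial genes summed to 197 to 680.2 CPM in bleomycin KO, 282 to 875 CPM in bleomycin WT and 1741 to 2541 CPM in saline WT. The 11 endothelial genes summed to 85.6 to 191 CPM, 102 to 809 CPM and 270.2 to 497 CPM in those same groups. The 11 alveolar macrophage genes summed to 797 to 948 CPM, 644 to 1401 CPM and 681 to 1690 CPM in these groups. Of the 11, 10 had negative log2 fold changes and 1 a positive one in each comparison with saline WT. Their median was -1.29 in bleomycin WT and -0.77 in bleomycin KO. None of these genes was at 0 in all libraries of a group, and their part in the members' levels was not tested. The 10 genes of interstitial macrophages summed to 10630 to 15339 CPM in bleomycin KO and 11557 to 16679 CPM in bleomycin WT. In saline WT they summed to 4837 to 14057 CPM. They did not share 1 direction. In bleomycin WT against saline WT, 6 had positive and 4 negative log2 fold changes, with a median of 0.12. In bleomycin KO against saline WT, 5 were positive and 5 negative, with a median of -0.36.

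The 12 other classical monocyte genes did not share 1 direction. In bleomycin WT against saline WT, 6 had positive and 6 negative log2 fold changes, with a median of -0.01, and 0 of 12 passed the edgeR test. At an unadjusted p under 0.05, 2 were higher and 3 lower, where 8.47% and 6.19% of all genes were, and those given here were named after their values were seen. *Ccr2*, the chemokine receptor by which monocytes leave the bone marrow, averaged 760 ± 569 CPM in bleomycin WT, against 214 ± 171 CPM in saline WT (edgeR adjusted p = 0.239), and *Ccl9*, a chemokine of myeloid cells, 961 ± 188 CPM, against 347 ± 32.5 CPM (edgeR adjusted p = 0.174). *Mcemp1* averaged 108 ± 24.7 CPM in bleomycin WT, against 382 ± 257 CPM in saline WT, and *Msrb1*, a methionine sulfoxide reductase, 90.3 ± 9.09 CPM, against 184 ± 102 CPM. In bleomycin KO, *Ccr2* averaged 563 ± 111 CPM and *Ccl9* 1106 ± 125 CPM. The list as a whole had 5 positive and 7 negative log2 fold changes in bleomycin KO against saline WT, with a median of -0.28. There 3 were higher and 3 lower at an unadjusted edgeR p under 0.05, where 2.96% and 6.07% of all genes were. The 2 most abundant of the 12 were *Lyz2*, lysozyme, at 42109 ± 9216 CPM in bleomycin KO, 31009 ± 11235 CPM in bleomycin WT, with saline WT at 19982 ± 7931 CPM, and *Chil3*, a chitinase-like protein of alternatively activated macrophages, at 1088 ± 256 CPM, 1359 ± 706 CPM and 1971 ± 1041 CPM in those same groups. In bleomycin KO against bleomycin WT, 0 of 12 had an unadjusted p under 0.05.

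The gene families of the members were read next, and 0 genes of any family passed the edgeR test in any comparison. Of 5 relatives of *Ly6c2* in the Ly6 family, 5 had negative log2 fold changes in bleomycin WT against saline WT, with a median of -1.83, and 5 in bleomycin KO against saline WT, with a median of -1.21. The most abundant, *Ly6e*, averaged 1144 ± 108 CPM in bleomycin KO, 926 ± 312 CPM in bleomycin WT and, in saline WT, 1497 ± 312 CPM, and *Ly6a*, the stem cell antigen Sca-1, 84.0 ± 17.7 CPM, 54.7 ± 45.8 CPM and 208 ± 301 CPM. Of the 5 relatives of *Ifitm6*, 4 were tested, and 3 of them had an unadjusted p under 0.05 on the lower side in each comparison with saline WT, where 6.19% of all genes did in bleomycin WT and 6.07% in bleomycin KO. *Ifitm3*, which restricts virus entry, averaged 257 ± 46.3 CPM in bleomycin KO, 275 ± 159 CPM in bleomycin WT, with saline WT at 686 ± 389 CPM, and *Ifitm1* 42.7 ± 8.23 CPM, 84.7 ± 110.3 CPM and 290 ± 256 CPM.

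Relatives of *Ms4a4c* went both ways, with 4 of 8 positive and 4 negative in bleomycin WT against saline WT. *Ms4a6d*, the most abundant, averaged 491 ± 30.2 CPM in bleomycin KO, 604 ± 223 CPM in bleomycin WT and, in saline WT, 149 ± 99.5 CPM, with all 8 bleomycin libraries above all 4 saline WT libraries (edgeR adjusted p = 0.201 in WT and 0.310 in KO). *Ms4a7*, a macrophage gene, averaged 450.0 ± 96.7 CPM, 345 ± 197 CPM and 285 ± 104 CPM in those same groups. Among 6 relatives of *S100a4*, 5 were tested, and *S100a6* averaged 455 ± 56.9 CPM in bleomycin KO, 403 ± 242 CPM in bleomycin WT, with saline WT at 554 ± 325 CPM. *S100a10*, a partner of annexin A2, averaged 489 ± 69.9 CPM, 414 ± 223 CPM and 342 ± 25.3 CPM.

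Genes that act with the secreted members are given next. Of 7 genes of haptoglobin and haem handling, 6 were tested, and *Cd163*, the receptor that takes up haptoglobin bound to haemoglobin, averaged 77.0 ± 58.8 CPM in bleomycin KO, 19.5 ± 9.84 CPM in bleomycin WT and, in saline WT, 134 ± 45.1 CPM. It was chosen after its values were seen; the 4 bleomycin WT libraries lay below the 4 saline WT libraries (edgeR adjusted p = 0.201), and bleomycin KO had an edgeR adjusted p of 0.949 against bleomycin WT. *Fth1*, the heavy chain of the iron store ferritin, averaged 7263 ± 559 CPM in bleomycin KO, 5853 ± 2467 CPM in bleomycin WT, with saline WT at 5085 ± 1344 CPM, and *Hmox1*, haem oxygenase, 286 ± 56.0 CPM, 317 ± 193 CPM and 262 ± 183 CPM. Of 8 receptors for fibronectin and versican, 1 was higher and 1 lower at an unadjusted edgeR p under 0.05 in bleomycin WT against saline WT. Of all genes, 8.47% were higher and 6.19% lower at that p. The 2 receptors were the integrin chains *Itgav* and *Itgb3*, named after their values were seen. *Itgav* averaged 147 ± 65.3 CPM, against 67.6 ± 29.6 CPM, and *Itgb3* 7.32 ± 3.81 CPM, against 28.5 ± 33.4 CPM. *Tlr2*, a receptor that binds versican, averaged 2312 ± 311 CPM in bleomycin KO, 2046 ± 196 CPM in bleomycin WT and, in saline WT, 1357 ± 802 CPM, and *Selplg*, the selectin ligand PSGL-1, 816 ± 48.2 CPM, 691 ± 138 CPM and 1061 ± 718 CPM. Of 9 genes of fibrin formation and lysis, 7 had positive and 2 negative log2 fold changes in bleomycin WT against saline WT. Their median was 0.66, against 0.08 over all genes. In bleomycin KO against saline WT, 5 were positive and 4 negative. *Plaur*, the urokinase receptor, averaged 801 ± 151 CPM in bleomycin KO, 1362 ± 1132 CPM in bleomycin WT, with saline WT at 854 ± 771 CPM. *Tgm2*, a transglutaminase related to factor XIII, averaged 420.3 ± 119 CPM, 477 ± 189 CPM and 491 ± 403 CPM in those same groups.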

How the data were processed

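The deposited table holds whole-number read counts per gene for 12 libraries; the authors' raw counts were used as deposited, with no column of another study. Per the labels' protocols, cDNA was made from small amounts of sorted-cell RNA with a SMART-Seq v4 kit, which does not mark strand, and Nextera XT libraries were sequenced as single-end 50-base reads. GSNAP, limma, Partek, GRCm38 and mm10 are named in the submitters' processing notes; no source used here names the counting step. The design text filed with the series describes a different experiment and was not used.

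Genes with too few counts were dropped (filterByExpr by group), 16679 remaining of 52636, of which 11872 had no counts. All 12 libraries were fitted with group as the only term in edgeR 4.0.16 (TMM, robust quasi-likelihood test, R 4.3.3), and p-values were adjusted by Benjamini-Hochberg over all genes tested; SE is the log2 fold change over the root of F. CPM are TMM-scaled. Alternatives were DESeq2 1.42.0, limma 3.58.1 (voom, with and without quality weights), other scalings, no low-count filter, a replicate block, leaving out each library, and leaving out saline WT 2 with bleomycin WT 4. Intervals and floors (3 counts) cover counting error only. No replicate pair agreed within sampling noise (lowest chi-square per degree of freedom 23.9).

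Named genes are all members, the 2 most abundant genes of each related list, the most abundant gene of the neutrophil list, and any gene called. *Il4ra*, *Cx3cr1* and *Csf1r* are given to describe the samples, and others are marked as chosen after their values were seen. The members, lists and the left-out libraries were chosen with earlier results of these data known. The values of 1 gene of a related list are not reported here.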

Additional observations from a re-analysis of the deposited data

Results flagged for a closer look

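Over 27 groups of 4 libraries (9 genes in 3 groups), 3 had a library set apart from its group by more than Dixon's 95% critical value for 4 samples, and chance alone flags about 1 group in 20. *Fn1* stood at 4028 CPM in bleomycin KO 1, with the other bleomycin KO libraries at 639 to 1214 CPM (gap over range 0.830). *Fn1* also stood at 7591 CPM in bleomycin WT 2, with the other bleomycin WT libraries at 441 to 1243 CPM (gap over range 0.888). *S100a4* stood at 378 CPM in saline WT 2, the library of 60598 counts, from 35 counts, with the other saline WT libraries at 70.7 to 111 CPM (gap over range 0.870).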

How the results depend on the processing

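Across 540 log2 fold changes (27 values under 20 alternatives), 467 kept their direction and their side of the threshold, 27 passed it, 0 lost it and 46 changed sign. *Plac8*, *Ifitm6*, *Hp*, *Ly6c2* and *Fn1* kept their direction against saline WT under all 20, from -3.59 to -2.26 for *Plac8*, -4.76 to -3.41 for *Ifitm6*, -2.59 to -1.22 for *Hp*, -2.21 to -0.82 for *Ly6c2* and 1.66 to 3.57 for *Fn1* in bleomycin WT, and -2.95 to -1.67, -4.32 to -2.99, -2.88 to -1.70, -1.48 to -0.12 and 1.44 to 2.78 in bleomycin KO. The 0 members called in bleomycin WT against saline WT became 4 with DESeq2, 3 with voom and quality weights, 4 with no low-count filter and 2 without saline WT 2 and bleomycin WT 4, and stayed at 0 to 0 when single libraries were left out. In bleomycin KO against saline WT the counts were 3, 3, 4 and 3 in the same order and 0 to 1 with a library left out, the 1 being *Ifitm6* without bleomycin WT 4 (edgeR adjusted p = 0.0426). The replicate numbers did not pair the libraries (correlations of -0.202 to 0.0665 over 12 same-number pairs), and a replicate block called 0 members in each comparison and turned *Vcan* to 0.065 in bleomycin WT against saline WT and *Ms4a4c* to 0.35 in bleomycin KO against saline WT. Other scalings moved the median of all genes from 0.08 to -0.09 (RLE) and -0.31 (upper quartile) in bleomycin WT against saline WT and from 0.04 to -0.12 and -0.27 in bleomycin KO against saline WT; with both, *Fn1* libraries overlapped in the first of these, and with upper quartile also in the second. The signs that changed belonged to values of -0.60 to 0.43, and the cause was not tested. In bleomycin WT against saline WT they were *F13a1* at -0.67 with voom and -0.043 with upper quartile scaling, *S100a4* at 0.33 with voom, 1.10 with quality weights and 0.98 without the 2 libraries, and *Vcan* at 0.057 without them; leaving out 1 library gave -0.64 to 0.66 for *F13a1*, -0.56 to 0.77 for *S100a4*, -0.74 to 0.56 for *Vcan* and -0.72 to 0.86 for *Ms4a4c*. In bleomycin KO against bleomycin WT they were *Vcan* at 0.072 with voom, *Ifitm6* at -0.068, *F13a1* at -0.35 and *S100a4* at -0.25 with quality weights, and *Hp* at 0.0059, *F13a1* at -0.37 and *S100a4* at -0.17 without the 2 libraries; leaving out 1 library gave -0.38 to 0.89 for *F13a1*, -1.47 to 0.85 for *Fn1*, -0.18 to 0.66 for *S100a4* and -0.85 to 0.22 for *Vcan*. In bleomycin KO against saline WT they were *S100a4* at -0.15 with DESeq2, -0.14 with RLE and -1.28 with upper quartile scaling, *Ms4a4c* at 0.15 with voom, and *F13a1* at -0.0063 with upper quartile scaling and -0.15 without the 2 libraries; leaving out 1 library gave -0.18 to 0.90 for *S100a4*, -0.39 to 1.19 for *Ms4a4c*, -0.061 to 0.54 for *F13a1* and -0.85 to 0.089 for *Vcan*. Saline WT 2 limits what is detectable, since 3 counts there are 32.4 CPM.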
